A study of Mus musculus with 7 samples.

Results

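The 10 genes described here encode receptors that mark mitochondria for removal and effectors of the autophagy pathway that carries them to the lysosome. They were taken by name from the 39017 genes counted in each library, and all 10 passed the filter on low counts that left 15800 genes for testing. Bnip3, Bnip3l and Fundc1 are the receptors, Ulk1 and Pink1 the kinases, Map1lc3a, Map1lc3b, Gabarapl1 and Gabarapl2 the members of the ATG8 family, and Sqstm1 the cargo receptor. Messenger RNA was sequenced from 7 single-cell suspensions of fetal livers of the C57BL/6 strain at stage E12.5. The liver is then the main site of red cell formation, and the study asked what the loss of TAF10, a subunit of the TFIID and SAGA transcription complexes, does to it.

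The 2 TAF10KO livers are titled lox/lox with EpoCre, that is Cre expressed from the Epor locus, which is active in erythroid cells. The text of the series gives their genotype as lox/KO with EpoR-Cre. All 3 TAF10HET livers also carried EpoCre. TAF10HET replicate 1 was lox/wt and replicates 2 and 3 were wt/ko. The 2 WT livers were lox/lox and had no Cre, so both alleles were flanked by lox sites in them too. TAF10KO and WT livers thus differ in the Cre as well as in TAF10. Their comparison alone cannot tell these apart. Each title also holds a number in the form of a date, 1 of 2 in this series, whose meaning the labels do not state. It is called the date code below. Replicate 1 of every group carried the first date code, and the 4 other libraries, TAF10KO replicate 2, TAF10HET replicates 2 and 3 and WT replicate 2, carried the second. In TAF10HET the date code and the allele combination cannot be told apart. The labels do not say whether replicates came from separate litters. The p-values therefore measure the spread between these samples only.

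Gene counts ranged from 18008391 to 43401474 per library. Levels are given as CPM, counts scaled to a common library total with TMM factors. The targeted gene Taf10 had 37.8 and 43.8 CPM in TAF10KO livers, against 78.1, 63.7 and 63.0 CPM in TAF10HET and 72.0 and 96.5 CPM in WT livers. Epor, which carries the Cre, had 83.1 and 99.2 CPM in TAF10KO, 156.4, 139.2 and 125.4 CPM in TAF10HET and 158.2 and 238.7 CPM in WT livers. In a principal component analysis of log2 CPM, the first axis (63.2% of variance) separated the date codes. Libraries of the second date code had less mesenchymal RNA, with 12 markers summing to 482 to 651 CPM against 1899 to 3097 CPM on the first. All 16 late erythroid markers were detected in every library, with sums of 29044 to 58999 CPM. Hepatocyte markers were detected too, with 12 of them summing to 13107 to 21149 CPM. By Xist and Y-linked genes, TAF10KO replicate 2 and TAF10HET replicate 1 were male and the other 5 embryos female. In such bulk samples, fewer cells of a type and less RNA per cell cannot be told apart.

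Autophagy encloses cell contents in a membrane that fuses with the lysosome, and its selective form for mitochondria is called mitophagy. ULK1 is the kinase that starts the process. ATG8 proteins, the family of MAP1LC3 and GABARAP proteins, are attached to the growing membrane and bind receptors on the cargo. BNIP3, BNIP3L (also called NIX) and FUNDC1 are such receptors in the outer mitochondrial membrane, whereas SQSTM1 (p62) links ubiquitin-tagged cargo to ATG8 proteins and is itself degraded with it. PINK1 is a kinase that builds up on damaged mitochondria and starts their tagging with ubiquitin. Maturing red cells discard all their mitochondria, and mouse reticulocytes that lack BNIP3L retain them. Bnip3 is also a known target of the hypoxia-inducible factors, which bind the core letters ACGTG or GCGTG.

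The promoters of 8 of the 10 genes matched the RefSeq table of assembly GRCm38.p6, and Bnip3l and Map1lc3a did not. The 2 windows with the most matches to the hypoxia response core are shown because one belongs to the gene with the largest difference between genotypes among the 10 and the other to a gene with none that passed the test. Both run 5′ to 3′ on the strand of the gene and end at the base before its annotated start in GENCODE M21. The Bnip3 stretch is chr7:138909520-138909756 on the minus strand and the Map1lc3b stretch chr8:121590188-121590360 on the plus strand. Capitals mark ACGTG or GCGTG on either strand, which reads CACGT or CACGC when the match lies on the other one.
Bnip3: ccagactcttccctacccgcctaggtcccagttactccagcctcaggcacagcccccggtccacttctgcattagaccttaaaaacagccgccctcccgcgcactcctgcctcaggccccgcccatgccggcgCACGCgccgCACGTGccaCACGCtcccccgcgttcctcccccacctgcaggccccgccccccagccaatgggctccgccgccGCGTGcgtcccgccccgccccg
Map1lc3b: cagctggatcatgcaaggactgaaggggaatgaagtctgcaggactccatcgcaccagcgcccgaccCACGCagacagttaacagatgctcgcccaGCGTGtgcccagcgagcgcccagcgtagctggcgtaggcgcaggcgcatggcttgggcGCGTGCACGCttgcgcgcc

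In the 250 bases before the RefSeq start, Bnip3 held 5 matches to ACGTG or GCGTG and Map1lc3b also held 5, of which 4 lie in the bases printed. In Bnip3, 2 of the 5 are the opposite strands of a single CACGTG at -108 to -103, counted from the start. Ulk1, Pink1 and Gabarapl2 held 1 match each, and Fundc1, Gabarapl1 and Sqstm1 held 0, the Fundc1 window lying inside the longer gene of GENCODE M21. Of all 32851 promoters in the table, 38.6% held at least 1 match and 2.58% at least 4. These shares were not matched for GC content. It was 72.4% in the Bnip3 and 69.6% in the Map1lc3b window, the highest of the 8. The full CACGTG, which contains the core on both strands, was found in Bnip3 alone among the 8, and in 6.02% of all promoters. The GATA letters AGATAA or TGATAA occurred once in Pink1 and in no other of the 8, against 16.6% of all promoters. The antioxidant motif TGACNNNGC (10.2% of promoters) and the ATF4 motif TGATGNAAN (3.44%) were in none of the 8 windows. Sequence matches are a description of the letters and show no binding.

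**Figure D1:**
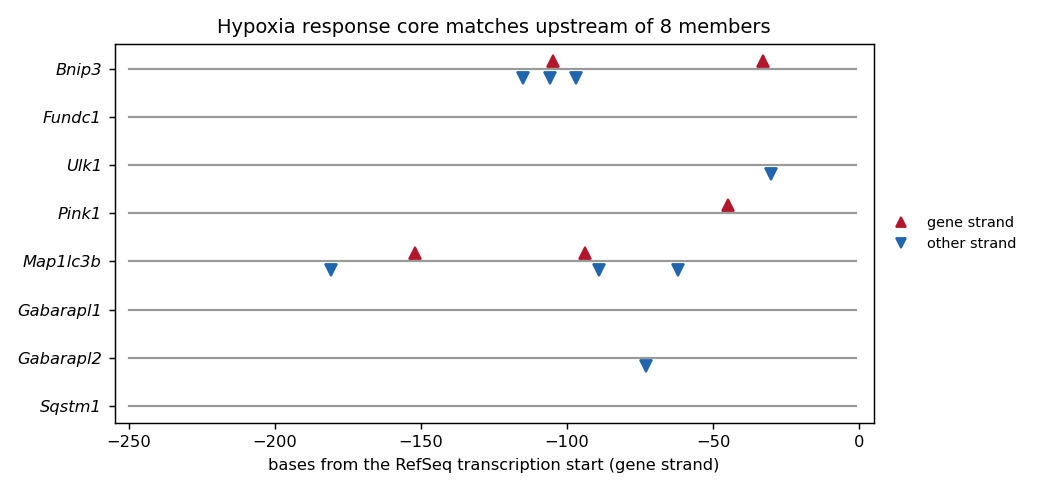
Positions of matches to ACGTG or GCGTG in the 250 bases before the RefSeq start of 8 genes, in bases from that start; triangles pointing up are matches on the strand of the gene and those pointing down on the other strand. Bnip3 and Map1lc3b hold 5 matches each, Ulk1, Pink1 and Gabarapl2 hold 1 each, and the other 3 windows hold 0.

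Levels differed widely among the 10 genes. On the scale of CPM per kilobase of annotated exon, the mean level over the 7 libraries was 81.2 ± 12.2 for Bnip3l, 44.0 ± 32.1 for Bnip3 and 40.6 ± 7.26 for Sqstm1 (SD, n = 7 each). Gabarapl2 followed with 34.8 ± 5.22 and Gabarapl1 with 27.2 ± 4.87. Map1lc3b had 14.3 ± 1.26, Ulk1 12.6 ± 2.31, Pink1 11.2 ± 2.08, Fundc1 9.28 ± 1.19 and Map1lc3a 6.87 ± 1.61 CPM per kilobase. Over all libraries Bnip3l thus led the list and Map1lc3a, the less abundant of the pair of LC3 genes, closed it, and this order was the same per kilobase of the longest transcript. Bnip3 and Sqstm1, Sqstm1 and Gabarapl2, and the run from Map1lc3b to Fundc1 were neighbours whose means lay closer than the larger of their SDs over the libraries. Bnip3 had by far the largest SD in relation to its mean, and its place in the order was set by the TAF10KO libraries. Its mean was 85.1 ± 35.6 CPM per kilobase in the 2 TAF10KO livers, against 26.1 ± 6.41 in the 3 TAF10HET livers and 29.8 ± 10.1 in the 2 WT livers (SD). In TAF10HET and WT its mean lay below those of Sqstm1 (38.6 in TAF10HET and 34.4 in WT livers) and Gabarapl2 (37.1 in TAF10HET and 36.4 in WT livers).

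TAF10KO livers had more RNA of Bnip3, the hypoxia-inducible mitophagy receptor, and to a smaller extent of Sqstm1, the p62 cargo receptor, than WT livers. These were 2 of the 10 genes called at an adjusted p under 0.05 by edgeR's quasi-likelihood test with Benjamini-Hochberg adjustment over all genes, both higher, where 0.608% of all genes tested were called and 0.481% were called higher. The close relative Bnip3l, the receptor tied to mitochondrial clearance in red cells, did not pass the test, nor did Fundc1, either kinase or any of the 4 ATG8 genes. The median log2 fold change of the 10 was 0.13, beside 0.03 for all genes tested.

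Bnip3 (ENSMUSG00000078566, mm10 chr7:138890836-138909519, minus strand) had 135.8 and 249.8 CPM in TAF10KO replicates 1 and 2, against 51.3 and 83.6 CPM in WT replicates 1 and 2. Both TAF10KO livers lay above both WT livers, and within each group the library of the second date code was the higher. Its exons overlap the antisense gene Gm45507 of GENCODE M21, which was not analysed here, and reads of the pair cannot be told apart without strand. The fitted log2 fold change, with the date code as a term beside genotype, was 1.49 (SE 0.118, adjusted p = 0.00458). The log2 CPM difference was 1.40 within the first date code and 1.58 within the second. An interaction of genotype with date code, fitted in edgeR with 1 residual degree of freedom, was 0.18 on the log2 scale (adjusted p = 0.730). The call was lost in the fit without the date term (log2 fold change 1.52, SE 0.398, adjusted p = 0.99998), where 0 of the 15800 genes passed and 729 had an unadjusted p under 0.05; DESeq2 without that term called 84 genes, Bnip3 among them (adjusted p = 0.0341). It was also lost without WT replicate 1 (1.49, adjusted p = 0.184) and without WT replicate 2 (1.49, adjusted p = 0.269), fits in which the lone WT library is taken to vary like the other groups and in which 0 genes passed, with 1553 and 979 at an unadjusted p under 0.05.

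**Figure D2:**
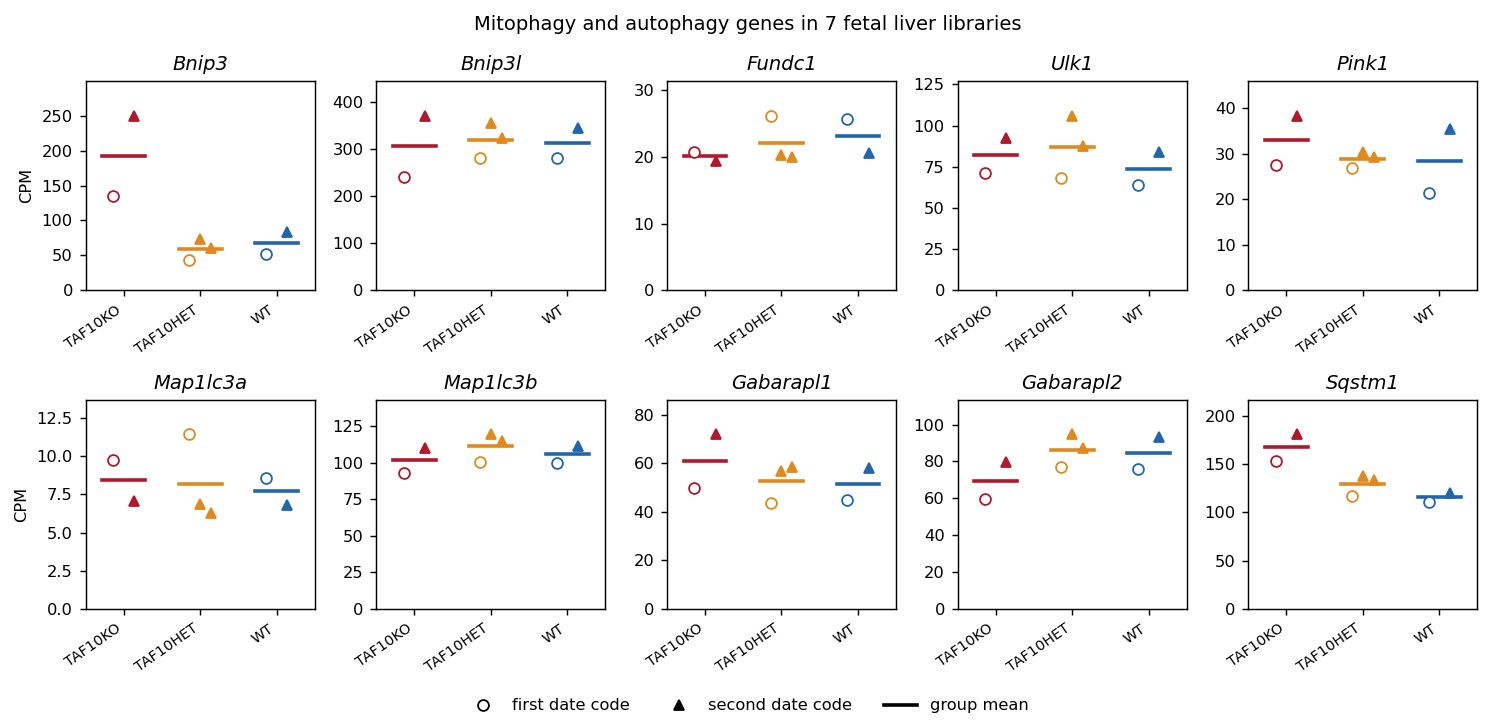
CPM of the 10 genes in the 7 libraries, 1 panel per gene, with TAF10KO left of TAF10HET and WT; open circles are the first date code, filled triangles the second, and bars the group mean. Both TAF10KO points lie above every other library for Bnip3 (135.8 and 249.8 CPM) and Sqstm1 (153.6 and 180.6 CPM), and in the other panels the genotypes overlap.

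Bnip3l (ENSMUSG00000022051, mm10 chr14:66985239-67008877, minus strand) had 240.6 and 369.7 CPM in TAF10KO livers, against 280.3 and 344.7 CPM in WT livers. The TAF10KO livers lay on both sides of the WT pair, the lowest value of the 7 libraries being TAF10KO replicate 1 and the highest TAF10KO replicate 2. The fitted log2 fold change was -0.06 (SE 0.112, adjusted p = 0.835), with -0.22 within the first date code and 0.10 within the second. A named pseudogene, Bnip3l-ps, is annotated, and the counts cannot show how reads shared with it were assigned. Per kilobase, the ratio of Bnip3l to Bnip3 was 1.04 and 0.869 in TAF10KO livers, against 3.73, 2.84 and 3.16 in TAF10HET and 3.20 and 2.42 in WT livers. The 2 receptors were thus at about equal levels per length in TAF10KO livers, while Bnip3l exceeded Bnip3 in each of the other 5.

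Fundc1 (chromosome X), the third outer membrane receptor, had 20.8 and 19.4 CPM in TAF10KO livers, against 25.7 and 20.6 CPM in WT livers. The groups overlapped, TAF10KO replicate 1 lying just above WT replicate 2, and the log2 fold change of -0.19 (SE 0.107) did not pass (adjusted p = 0.390). Ulk1 (chromosome 5), the initiating kinase, had 71.5 and 92.3 CPM in TAF10KO and 63.7 and 84.0 CPM in WT livers, with a log2 fold change of 0.15 (adjusted p = 0.476). Pink1 (chromosome 4) had 27.6 and 38.3 CPM in TAF10KO and 21.5 and 35.4 CPM in WT livers, with a log2 fold change of 0.23 (adjusted p = 0.429). For both kinases the genotypes overlapped and the date codes set the higher and lower library of each pair apart.

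Among the ATG8 genes, Gabarapl1 and Gabarapl2, both of the GABARAP branch that acts late in autophagosome formation, had log2 fold changes of opposite sign against WT, and neither passed the test. Gabarapl1 (chromosome 6) had 49.7 and 71.9 CPM in TAF10KO livers, against 44.8 and 58.1 CPM in WT livers, and its log2 fold change was 0.23 (SE 0.0777, adjusted p = 0.200). Its exons overlap 1700101I11Rik on the opposite strand over 570 of 2013 bases, a gene at 0.155 to 0.390 CPM in the 7 libraries. Gabarapl2 (chromosome 8) had 59.4 and 79.5 CPM in TAF10KO livers, against 76.0 and 93.2 CPM in WT livers, with a log2 fold change of -0.29 (SE 0.0837, adjusted p = 0.152). Within the first and second date codes the log2 CPM difference was 0.15 and 0.31 for Gabarapl1 and -0.36 and -0.23 for Gabarapl2. Among all genes, 34.3% were higher and 30.3% lower within both codes, and of the 10 genes 6 were higher (Bnip3, Ulk1, Pink1, Map1lc3a, Gabarapl1 and Sqstm1) and 3 lower (Fundc1, Map1lc3b and Gabarapl2). Of the 18 alternatives, 2 called Gabarapl2 lower, the fit with embryo sex as a term (adjusted p = 0.00552) and the one that left out TAF10KO replicate 2 (adjusted p = 0.0442). The LC3 genes were closer to WT. Map1lc3b (chromosome 8), the standard marker of autophagosomes, had 93.1 and 110.3 CPM in TAF10KO and 99.99 and 111.8 CPM in WT livers, and a log2 fold change of -0.06 (SE 0.0747, adjusted p = 0.703). Its exons overlap Zcchc14 on the opposite strand over 58 of 7517 bases, a gene at 10.6 to 12.6 CPM on the second date code and 27.4 to 33.5 CPM on the first. Map1lc3a (chromosome 2) had 9.75 and 7.07 CPM in TAF10KO and 8.60 and 6.82 CPM in WT livers, with a log2 fold change of 0.12 (adjusted p = 0.739). Of the 2 genes whose promoters held 5 hypoxia response cores, Bnip3 was therefore called and Map1lc3b was not.

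Sqstm1 (ENSMUSG00000015837, mm10 chr11:50199366-50210827, minus strand) had 153.6 and 180.6 CPM in TAF10KO livers, against 110.4 and 120.4 CPM in WT livers. The TAF10KO livers were the 2 highest of the 7, and the groups did not overlap. Its log2 fold change was 0.53 (SE 0.0778, adjusted p = 0.0438), with 0.48 within the first date code and 0.59 within the second. This call lay close to the threshold and held in 11 of 18 alternatives. It was lost without the date term (adjusted p = 0.988), with non-robust dispersions (0.0502), in DESeq2 without the date term (0.114), and on leaving out either WT library (0.356 without replicate 1, 0.752 without replicate 2) or TAF10HET replicate 2 (0.0994) or 3 (0.150), while its log2 fold change stayed between 0.47 and 0.57. Exons of Sqstm1 overlap those of Mrnip on the opposite strand over 580 of 3356 bases, and the strand setting of the counting is not given in the sources used here. Mrnip had 3.75 to 5.03 CPM in the 7 libraries. Groups that do not overlap in CPM, as for Bnip3 and Sqstm1, were seen for 29.8% of all genes in this comparison.

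Cell markers moved with the genotype as well. Late erythroid markers summed to 29044 and 40467 CPM in TAF10KO livers, against 42161, 58999 and 49879 CPM in TAF10HET and 35855 and 53691 CPM in WT livers, so that within each date code TAF10KO was lowest. Tfrc, the transferrin receptor, was the only 1 of the 16 genes in this list called against WT, and it was lower. Endothelial markers summed to 614 and 299 CPM in TAF10KO livers, against 432, 271 and 240 CPM in TAF10HET and 459 and 228 CPM in WT livers, and neutrophil markers to 498 and 812 CPM in TAF10KO, 323, 547 and 405 CPM in TAF10HET and 394 and 491 CPM in WT livers. TAF10KO was highest in both lists within each date code, with 2 of 12 endothelial markers called higher. All 12 neutrophil markers had a positive log2 fold change against WT (median 0.68), and none passed the test. Megakaryocyte markers summed to 976 and 1157 CPM in TAF10KO livers, against 748, 886 and 896 CPM in TAF10HET and 900.1 and 832 CPM in WT livers, again highest in TAF10KO within each date code, with 11 of 12 log2 fold changes against WT positive (median 0.30). Mesenchymal markers had 11 of 12 positive (median 0.47), macrophage markers 10 of 12 negative (median -0.43) and hepatocyte markers 10 of 12 negative (median -0.25), and no marker of these 4 lists passed the test against WT. Against TAF10HET, edgeR called the endothelial markers Pecam1, Kdr and Flt1 and the neutrophil markers Mpo and Prtn3 higher. It called Hbb-bt, Hba-a2, Tfrc and Car2 of the late erythroid list and the macrophage marker C1qa lower. Counts of the globin genes Hbb-bt and Hba-a2, which have near-identical copies, are uncertain. Hbb-bt had 1072 and 636 CPM in TAF10KO and 967 and 693 CPM in WT livers, against 4967, 5411 and 4915 CPM in TAF10HET. Its log2 fold change in TAF10KO against WT was 0.02. It was the only gene that edgeR called in TAF10HET against WT (log2 fold change 2.71, adjusted p = 0.0245). Its counts are part of the late erythroid sums. TAF10HET livers are the only ones titled with a wt allele, whereas TAF10KO and WT livers are titled lox/lox. The level of Hbb-bt thus went with the titled alleles. Its call in TAF10KO against TAF10HET cannot be told apart from that difference in alleles. No marker of the 7 cell types examined was at 0 in any library. Their part in the differences of Bnip3 and Sqstm1 was not tested.

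Against TAF10HET livers, which carry the same Cre, the same genes stood out. Bnip3 and Sqstm1 were again the 2 of 10 called, both higher, where 1.61% of all genes were called and 1.15% called higher by the same test. This comparison shares the TAF10KO libraries with the one against WT and is not independent of it. TAF10HET livers carry a wt allele of Taf10, and the TAF10KO livers are titled lox/lox. Taf10 (mm10 chr7:105739393-105744361) and Bnip3 lie on the same chromosome. Loss of TAF10 and the chromosome 7 alleles carried cannot be told apart in this comparison. Bnip3 had 135.8 and 249.8 CPM in TAF10KO livers, against 44.1, 73.1 and 60.0 CPM in TAF10HET livers, and the lowest TAF10KO liver exceeded the highest TAF10HET liver. The log2 fold change was 1.79 (SE 0.105, adjusted p = 0.00125), with 1.62 within the first date code and 1.91 within the second. Leaving out any 1 library kept the call, with log2 fold changes of 1.62 to 1.89 and a highest adjusted p of 0.0244, and of the 18 alternatives the edgeR fit without the date term alone lost it (1.71, adjusted p = 0.624).

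Sqstm1 had 153.6 and 180.6 CPM in TAF10KO livers, against 117.2, 137.9 and 133.7 CPM in TAF10HET livers, again with no overlap. Its log2 fold change was 0.40 (SE 0.0710, adjusted p = 0.0446), within-date differences were 0.39 and 0.41, and the call held in 10 of 18 alternatives. It was lost without the date term (adjusted p = 0.834 in edgeR and 0.463 in DESeq2), in a fit of only these genotypes (0.154), and on leaving out TAF10KO replicate 2 (0.0608), TAF10HET replicate 2 (0.155) or 3 (0.218), or WT replicate 1 (0.151) or 2 (0.155). Groups without overlap were seen for 20.1% of all genes in this comparison. Gabarapl1 had 49.7 and 71.9 CPM in TAF10KO livers, against 43.5, 56.9 and 58.3 CPM in TAF10HET livers, and a log2 fold change of 0.26 (SE 0.0712, adjusted p = 0.128). Gabarapl2 had 59.4 and 79.5 CPM in TAF10KO livers, against 76.8, 94.6 and 87.1 CPM in TAF10HET livers, and a log2 fold change of -0.27 (SE 0.0774, adjusted p = 0.142). The genotypes overlapped for both, as they did for the other 6 genes, whose log2 fold changes ran from -0.17 for Fundc1 to 0.24 for Pink1. The median of the 10 was -0.02, beside 0.00 for all genes.

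**Figure D3:**
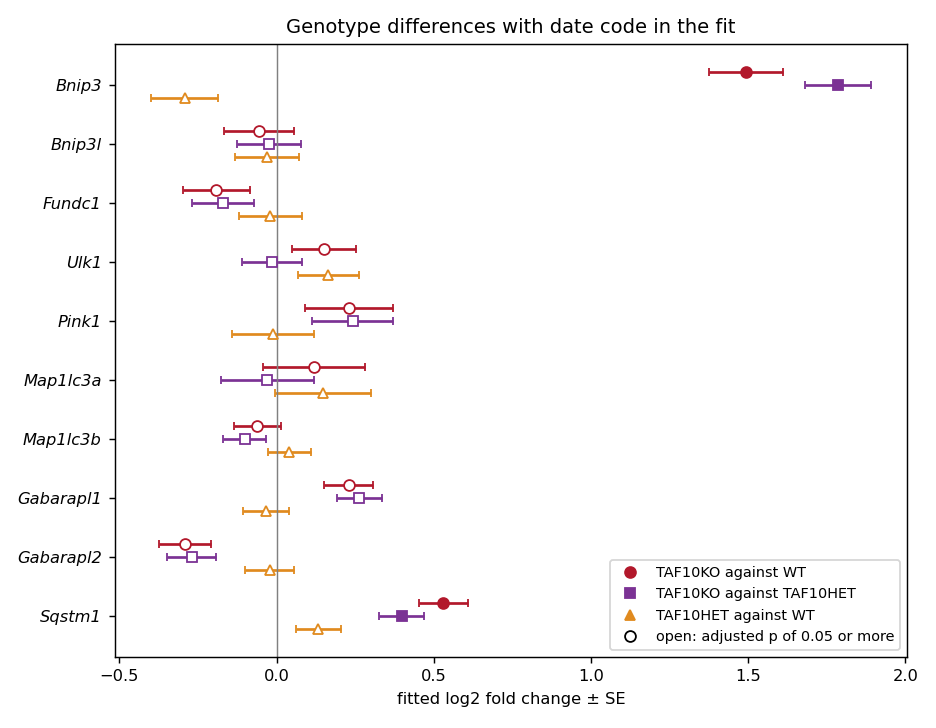
Fitted log2 fold change ± SE of each gene for TAF10KO against WT (circles), TAF10KO against TAF10HET (squares) and TAF10HET against WT (triangles), with date code in the fit; filled symbols have an adjusted p under 0.05. Bnip3 at 1.49 and 1.79 and Sqstm1 at 0.53 and 0.40 are the filled symbols, and every TAF10HET against WT value lies between -0.29 and 0.16.

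TAF10HET livers did not differ from WT livers beyond the threshold in any of the 10 genes. In edgeR's test 0 of 10 were called, where 0.00633% of all genes were called, and DESeq2 also called 0. At an unadjusted p under 0.05 edgeR had 1 of the 10, Bnip3, and 530 of the 15800 genes. Bnip3 had 44.1, 73.1 and 60.0 CPM in TAF10HET livers, against 51.3 and 83.6 CPM in WT livers, and was lower in TAF10HET within both date codes, with log2 CPM differences of -0.22 and -0.34. Its fitted log2 fold change was -0.29 (SE 0.108, unadjusted p = 0.0283, adjusted p = 0.999). Of the 10 genes, Pink1 differed most between dates in this comparison, with 26.8, 30.3 and 29.2 CPM in TAF10HET livers against 21.5 and 35.4 CPM in WT livers. Its log2 CPM difference was 0.32 on the first date code and -0.25 on the second, and the interaction of -0.57 did not pass in edgeR (adjusted p = 0.166). The other 8 genes had log2 fold changes of -0.03 to 0.16. TAF10HET and WT livers overlapped in CPM for all 10, where 9.28% of all genes did not overlap.

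The date code went with all 10 genes. Between the second and first codes, with genotype in the fit, edgeR called 8 higher and 2 lower, where 41.4% of all genes were called, 18.7% higher and 22.7% lower. The median log2 difference of the 10 was 0.35, beside 0.02 for all genes. All 8 were higher on the second code in each of the 3 genotypes, as 32.1% of all genes were, and the 2 were lower in each genotype, as 33.3% were.

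The largest of these differences was that of Bnip3, 0.72 on the log2 scale (SE 0.0916, adjusted p = 0.00118). Within genotypes it was 0.88 in TAF10KO, 0.59 in TAF10HET and 0.70 in WT livers. Since the TAF10KO library of the first code exceeded all TAF10HET and WT libraries, the date codes overlapped for Bnip3, and they did so for Sqstm1 (0.19, SE 0.0606, adjusted p = 0.0383). For the remaining 8 genes they did not, as for 42.4% of all genes. Without genotype in the fit, neither Bnip3 (0.60, adjusted p = 0.554) nor Sqstm1 (0.17, adjusted p = 0.419) was called.

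Bnip3l had 369.7, 353.7, 323.2 and 344.7 CPM in TAF10KO replicate 2, TAF10HET replicates 2 and 3 and WT replicate 2, the libraries of the second code, against 240.6, 280.8 and 280.3 CPM in TAF10KO, TAF10HET and WT replicate 1. Its difference was 0.38 (SE 0.0870, adjusted p = 0.0117), with 0.62 in TAF10KO, 0.27 in TAF10HET and 0.30 in WT livers. Ulk1 (0.43, adjusted p = 0.00544), Pink1 (0.42, adjusted p = 0.0204), Gabarapl1 (0.44, adjusted p = 0.00170), Gabarapl2 (0.31, adjusted p = 0.00854) and Map1lc3b (0.21, adjusted p = 0.0241) were higher on the second code. Ulk1 and Gabarapl1 kept their calls in all 17 alternatives. The receptors, kinases and ATG8 genes thus moved together here, apart from Fundc1 and Map1lc3a.

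Fundc1 had 19.4, 20.3, 19.9 and 20.6 CPM in TAF10KO replicate 2, TAF10HET replicates 2 and 3 and WT replicate 2, against 20.8, 26.1 and 25.7 CPM in the first libraries of TAF10KO, TAF10HET and WT. Its difference was -0.27 (SE 0.0829, adjusted p = 0.0341). Map1lc3a had 7.07, 6.84, 6.27 and 6.82 CPM in the second-code libraries of TAF10KO, TAF10HET and WT, against 9.75, 11.4 and 8.60 CPM in their first-code libraries, a difference of -0.56 (SE 0.126, adjusted p = 0.0113). These are the 2 genes with the lowest levels per kilobase, and the only members lower on the second code.

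**Figure D4:**
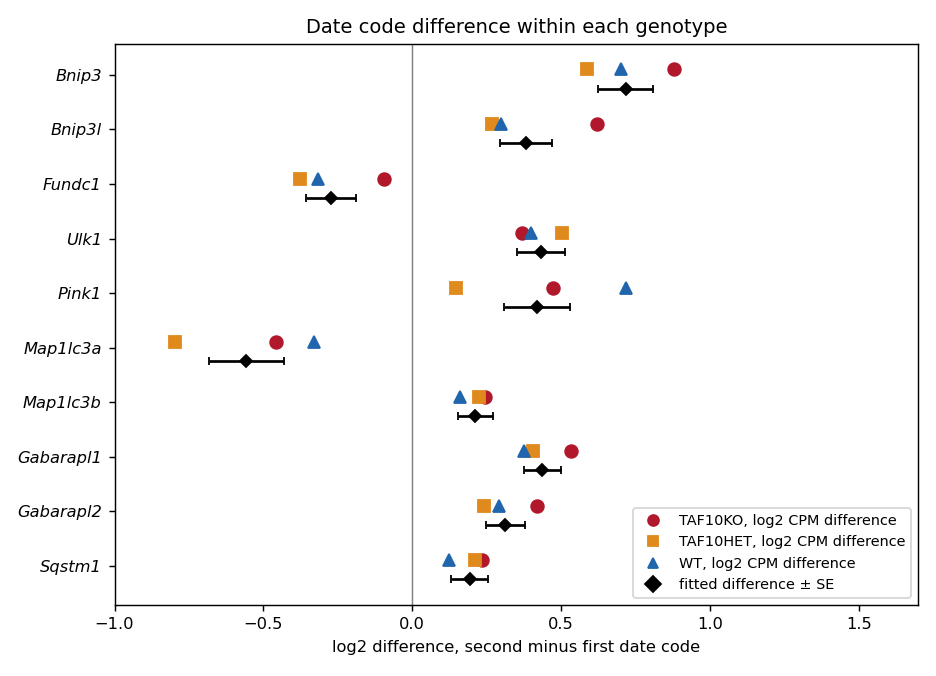
Log2 difference of each gene, second minus first date code, within TAF10KO (circles), TAF10HET (squares) and WT (triangles), with the fitted difference ± SE as black diamonds. Bnip3 has the largest fitted difference at 0.72, 8 genes lie to the right of 0 in every genotype, and Fundc1 and Map1lc3a lie to the left.

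Cell markers also differed between the date codes. Late erythroid markers summed to 40467 to 58999 CPM on the second code, against 29044 to 42161 CPM on the first, with 11 of 16 called higher and 0 lower. Hepatocyte markers summed to 13107 to 17291 CPM on the second code, against 18590 to 21149 CPM on the first, with 10 of 12 called lower, and all 12 mesenchymal and all 12 endothelial markers were called lower. Of 12 neutrophil markers 6 were called higher and 0 lower, and of 12 megakaryocyte markers 2 higher and 0 lower. Of 12 macrophage markers 1 was called higher and 7 lower. The part of these shifts in the date differences of the 10 genes was not tested. Leaving out either WT library left 8 of the 10 genes higher on the second code. Their median difference was 0.28 without WT replicate 1 and 0.31 without WT replicate 2, beside -0.01 and 0.02 for all genes. Fewer of the 10 genes and fewer of all genes were called in these fits. The date call of Sqstm1 was lost on leaving out any 1 of the 7 libraries. Over the 17 alternatives it held in 5 for Sqstm1, 9 for Fundc1 and 10 for Map1lc3b.

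The genes around the 10 in the pathway were read from 5 lists of 86 autophagy genes, of which 84 were tested. None of the 84 was called in TAF10KO against WT by edgeR, 15 had an unadjusted p under 0.05, and DESeq2 called 1, Vamp8, lower. Their median log2 fold change was 0.05, beside 0.03 for all genes, and the values ran from -0.43 for Vamp8, a SNARE of autophagosome fusion, to 0.45 for Calcoco1, a cargo receptor. With embryo sex as a further term, 12 of the 84 were called higher and 7 lower, in a fit that called 2725 genes in all. Leaving out 1 library gave 0 to 3 called higher and 0 to 3 lower.

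By step of the pathway, 0 of 20 genes of the initiation complexes were called, among them Wipi2, which binds the lipid mark of the forming membrane, at 0.07 (SE 0.0753). None of 12 genes of ATG8 conjugation was called, and Gabarap, the closest relative of Gabarapl1, stood at 0.05 (SE 0.0954). For 19 other mitophagy genes the count was again 0, with Vcp, an extractor of ubiquitinated proteins, at 0.05 (SE 0.0931). The same held for 11 other cargo receptors, with Ncoa4, the receptor for ferritin, at 0.03 (SE 0.0926), and for 22 genes of fusion and the lysosome, with the protease Ctsb at -0.31 (SE 0.128, adjusted p = 0.269). Medians of the 5 lists lay between 0.00 and 0.14. Against TAF10HET livers 1 of the 84 was called, Vamp8, at -0.52 (SE 0.0778, adjusted p = 0.0263), a call lost without the date term in edgeR, in a fit of only these genotypes and on leaving out either WT library or TAF10HET replicate 2 or 3 (adjusted p of 0.115 to 0.624). In TAF10HET against WT none was called, and 0 had an unadjusted p under 0.05.

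Of 18 regulators upstream of autophagy genes, 1 was called in TAF10KO against WT. Sesn2, a stress-induced inhibitor of mTORC1, had 22.4 and 43.3 CPM in TAF10KO livers, against 13.6, 22.9 and 20.2 CPM in TAF10HET and 13.5 and 20.0 CPM in WT livers. TAF10KO replicate 1 lay below TAF10HET replicate 2, but above the other libraries of its own date code. The log2 fold change was 0.93 (SE 0.126, adjusted p = 0.0355). That call was lost with non-robust dispersions (adjusted p = 0.0514), without the date term (0.99998 in edgeR and 0.624 in DESeq2), and on leaving out either WT library (0.322 without replicate 1, 0.663 without replicate 2) or TAF10HET replicate 2 (0.0751) or 3 (0.120).

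A list of 16 textbook targets of the hypoxia-inducible factors, with Bnip3 left out, was read in the same way. Like the other lists, it was chosen with earlier results of these data known. In TAF10KO against WT 12 of the 16 were called higher and none lower, where 0.481% of all genes tested were called higher. The median log2 fold change of the 16 was 1.06, beside 0.03 for all genes. Bnip3 at 1.49 lay within the range of this list, which ran from 0.24 to 3.18. Ndufa4l2, a mitochondrial protein induced by low oxygen, led with 15.2 and 41.8 CPM in TAF10KO livers, against 1.66, 7.11 and 6.22 CPM in TAF10HET and 1.60 and 4.87 CPM in WT livers (log2 fold change 3.18, SE 0.176, adjusted p = 0.00314). The glycolytic genes Pgk1 (1.13, SE 0.0860, adjusted p = 0.00458) and Aldoa (1.41, SE 0.105, adjusted p = 0.00458) were called as well. In edgeR the count was 0 of 16 without the date term or without either WT library, fits in which 12 to 14 had an unadjusted p under 0.05, and DESeq2 without that term called 9. It was 8 without TAF10HET replicate 2 and 5 without TAF10HET replicate 3, with medians of 1.03 to 1.10 in these fits.

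**Figure D5:**
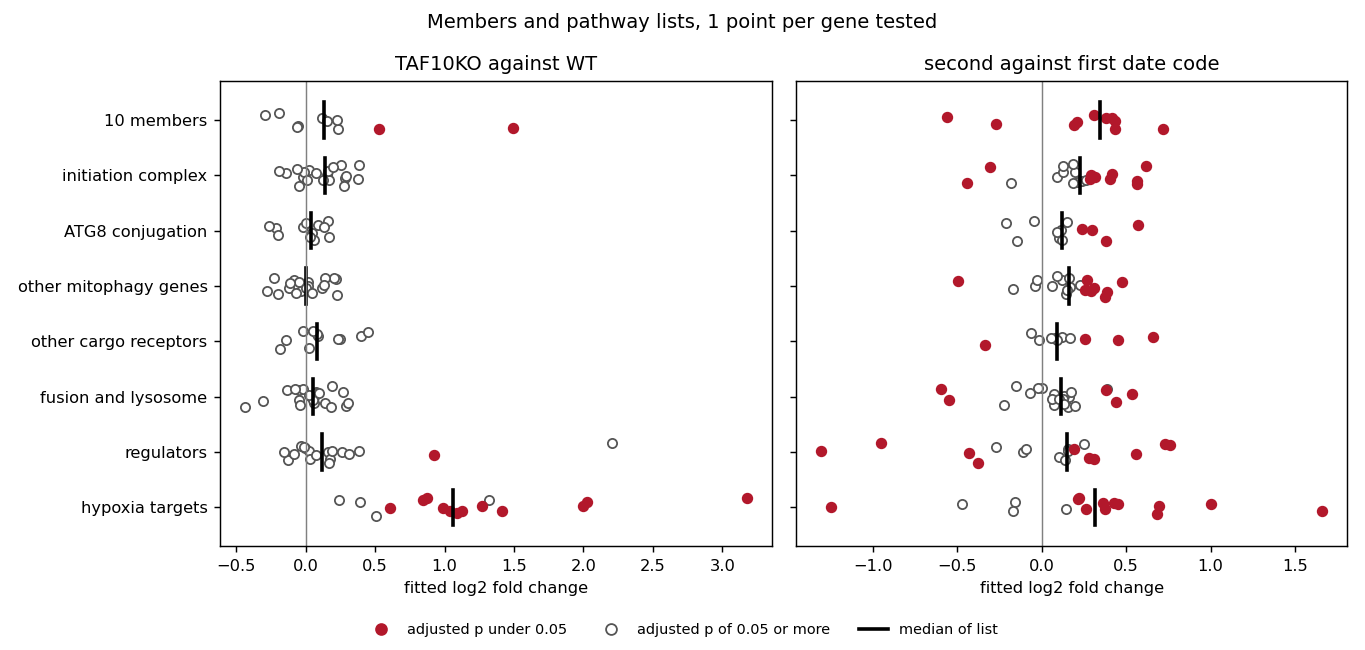
Fitted log2 fold changes of the 10 genes, 5 autophagy lists, the regulators and the hypoxia targets, 1 point per gene tested, for TAF10KO against WT (left) and the second against the first date code (right); filled points have an adjusted p under 0.05 and bars mark the median of each list. On the left, filled points are Bnip3 and Sqstm1 among the 10 genes, Sesn2 among the regulators and 12 hypoxia targets, and on the right every list holds filled points.

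Between date codes, 25 of the 84 pathway genes were called higher and 6 lower on the second code, which is 36.9% beside 41.4% of all genes. Their median difference was 0.15, below the 0.35 of the 10 genes. Atg2b (0.62) and Atg9a (0.56), which supply lipid to the forming membrane, and the ATG8 proteases Atg4d (0.57) and Atg4a (0.38) were among those higher. So were Ncoa4 (0.66), Optn (0.45), a receptor for ubiquitinated mitochondria, and the mitophagy receptor Bcl2l13 (0.48). Nipsnap1 (-0.50), which labels damaged mitochondria, the protease Ctsl (-0.60) and the lysosomal membrane gene Lamp2 (-0.55) were lower. Of the regulators, 6 were called higher, with Gata1, the erythroid transcription factor, at 0.56, and 4 lower, with Epas1, which encodes HIF-2alpha, at -1.31. Of the hypoxia targets, 11 were called higher and 1 lower.

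The genes most like 3 of the members were found by the root mean square difference between log2 CPM profiles over the 7 libraries, each centred on its own mean, among 15800 genes. All points share their libraries, and the measure carries no test. Nearest to Bnip3, whose own profile spread 0.809 about its mean, were Pfkp (0.127), Aldoa (0.195), Ciart (0.214), Foxh1 (0.215) and H2-Ab1 (0.223). Pfkp and Aldoa encode glycolytic enzymes. Pfkp had 56.5 and 109.6 CPM in TAF10KO livers, against 17.2, 31.1 and 28.9 CPM in TAF10HET and 20.6 and 29.7 CPM in WT livers, so that, as for Bnip3, both TAF10KO livers lay above the other 5 and the second date code was the higher in each genotype.

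Nearest to Bnip3l, with a spread of 0.208, was Atg4a (0.0187), a protease that prepares ATG8 proteins for conjugation, ahead of Mrps30 (0.0414), Zbtb44 (0.0566), Atf4 (0.0569) and Smndc1 (0.0571). Atg4a had 31.4 and 48.4 CPM in TAF10KO livers, against 36.6, 46.2 and 42.4 CPM in TAF10HET and 36.0 and 43.5 CPM in WT livers. As for Bnip3l, its lowest and highest libraries were TAF10KO replicates 1 and 2. Nearest to Sqstm1, with a spread of 0.228, were Hps4 (0.0487), Per1 (0.0553), Adgrg3 (0.0581), Ern1 (0.0589) and Gm10524 (0.0638). Ern1 encodes a sensor of unfolded proteins in the endoplasmic reticulum, and had 39.9 and 43.8 CPM in TAF10KO livers, against 28.9, 34.5 and 33.5 CPM in TAF10HET and 29.95 and 32.5 CPM in WT livers.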

How the data were processed

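The authors deposited raw counts of reads for each Ensembl gene, whole numbers without normalisation, for 7 libraries made with the TruSeq version 2 kit, per the labels' protocols. TopHat2 2.0.8, DESeq2 and mm10 are named in the submitters' processing notes. The sources used here do not give the counting program, annotation or strand setting. Of all reads, 6.81% to 10.1% fell in no gene, 3.98% to 5.94% were ambiguous and 14.1% to 22.25% aligned to several places, and these were left out. GENCODE M21 named 37607 of 39017 identifiers, and the other 1410 held 0.212% of the counts.

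Tests used edgeR 4.0.16 in R 4.3.3 (filterByExpr, TMM factors, robust dispersions, quasi-likelihood F test, two-sided) on all 7 libraries with genotype and date code as terms, 15800 genes and Benjamini-Hochberg adjustment with a threshold of 0.05. SE is the absolute log2 fold change divided by the square root of F. For log2 CPM the prior count was 2. The date code entered because it stands in every title and both codes hold libraries of every genotype. As a check, deviations from group means correlated at 0.40 to 0.74 in 8 pairs of libraries with the same code. In 8 pairs with different codes the correlations were -0.74 to -0.40, and in groups of 2 these mirror each other. The common biological coefficient of variation was 13.4% with the date code in the fit and 33.9% without. No library was a copy of another of its own genotype by a chi-square comparison, and pairs of different genotypes were not compared. DESeq2 1.42.0 was an alternative. The procedure was tested on simulated counts with known changes in TAF10KO against WT. It recovered 92% of 100 genes changed by 1 on the log2 scale and 100% of 100 changed by 2. The changed genes were drawn from those with an average log2 CPM above 2. Among the 15417 genes tested there, 26 unchanged genes were called. They made up a larger share of all calls than the threshold of 0.05 allows on average. Smaller changes, such as that of Sqstm1, were not simulated.

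The members, lists, tests and the rule for naming genes were chosen with earlier results of these data known. All 10 members were named, from each pathway list up to 3 called genes with the smallest adjusted p (2 for the date code) or the most abundant where none was called, and 5 nearest profiles each for Bnip3, Bnip3l and Sqstm1. Vamp8, Calcoco1, the genes overlapping members and the single cell type markers were named after their values were seen.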

Additional observations from a re-analysis of the deposited data

How the results depend on the processing

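Bnip3 kept its direction against WT and TAF10HET in all 18 alternatives, called in 15 and 17 of them, and Sqstm1 kept its direction in all, called in 11 and 10. Over the alternatives the log2 fold change against WT ran from 1.34 to 1.61 for Bnip3 and 0.47 to 0.57 for Sqstm1. No member was called in TAF10HET against WT under any alternative. With 1 library of each group on the first date code and 1 TAF10KO and 1 WT library on the second, differences within a date code had no replicate check, apart from the 2 TAF10HET libraries of the second.

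In TAF10KO against WT the members called numbered 0 without the date term (no replicate block), 1 with non-robust dispersions and 1 by DESeq2 with no replicate block, an alternative added after the data were seen. With 1 library left out they numbered 0 to 3, with 0 without either WT library. Over all genes the count of 96 became 589 by DESeq2, 1399 with no filter on low counts, 0 without the date block, 553 in a fit of only the groups compared, 53 with non-robust dispersions, 2725 with embryo sex as a term, and 0 to 1282 with 1 library left out.

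In TAF10HET against WT the 1 gene called became 9 by DESeq2, 289 without the filter, 0 with globin genes left out, 0 without the date block, 7 in a fit of only the groups compared, 0 with non-robust dispersions, 32 with embryo sex, 3 by DESeq2 with no replicate block and 0 to 13 with 1 library left out.

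In TAF10KO against TAF10HET the 2 members called became 0 without the date block, 1 in a fit of only the groups compared, 4 with embryo sex, 1 by DESeq2 with no replicate block and 1 to 3 with 1 library left out. Without the filter they were 3, Gabarapl1 being added. Over all genes the count of 254 became 690 by DESeq2, 1498 without the filter, 0 without the date block, 26 in a fit of only the groups compared, 2743 with embryo sex, 142 by DESeq2 with no replicate block and 16 to 1203 with 1 library left out.

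Between date codes the members called fell to 4 to 8 of 10 with 1 library left out, to 7 without genotype in the fit, and to 8 with upper-quartile factors, which set the median of all genes at -0.06 in place of 0.02. All genes called ranged from 3206 to 7303 with 1 library left out.

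Reversals of direction concerned members not called in that same comparison by the reported fit. In TAF10KO against WT, the log2 fold change with 1 library left out ran from -0.263 to 0.114 for Bnip3l and from -0.0531 to 0.277 for Map1lc3a. In TAF10HET against WT these ranges were -0.109 to 0.0224 for Bnip3l, -0.0932 to 0.0058 for Fundc1, -0.202 to 0.226 for Pink1, -0.0149 to 0.312 for Map1lc3a, -0.0023 to 0.0701 for Map1lc3b, -0.0853 to 0.0031 for Gabarapl1 and -0.0674 to 0.0183 for Gabarapl2. With no replicate block that comparison gave 0.0307 by edgeR and 0.035 by DESeq2 for Bnip3l, 0.0202 and 0.0252 for Pink1, 0.0399 and 0.0441 for Gabarapl1, and 0.027 and 0.0315 for Gabarapl2. In TAF10KO against TAF10HET the ranges with 1 library left out were -0.248 to 0.128 for Bnip3l, -0.0671 to 0.0708 for Ulk1 and -0.14 to 0.135 for Map1lc3a. There the fit without the filter gave 0.0145 for Bnip3l, 0.0243 for Ulk1 and 0.0092 for Map1lc3a, and no replicate block gave Map1lc3a 0.0395 by edgeR and 0.0258 by DESeq2. The causes were not tested.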
